A study of Mus musculus with 6 samples.

Results

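The 10 genes described here are the bone morphogenetic protein (BMP) ligands *Bmp4* and *Bmp6*, the receptors *Bmpr1a* and *Bmpr2*, the signal transducers *Smad1* and *Smad5*, and the target genes *Id1*, *Id2*, *Id3* and *Id4*. They were chosen by gene symbol, and all 10 were among the 17152 genes with enough reads to be tested, of 54115 genes with a matched transcript. RNA-sequencing libraries came from satellite cells, the resident muscle stem cells, taken fresh from mice on the C57BL/6J strain, with 3 libraries of Pax7 WT and 3 of Pax7 KR. Pax7 KR mice carry arginine in place of a lysine of PAX7, the transcription factor that defines these cells, which removes one site of its acetylation. According to the methods of the study, the allele was made by genome editing in zygotes and the mice were young adults, with wild-type littermates as controls. The cells of both genotypes were sorted from uninjured hindlimb muscle as α7-INTEGRIN+ and CD34+ and as CD31-, CD11b-, SCA-1- and CD45-, and 15 ng of RNA was used for each library. The labels do not say whether a library holds 1 mouse or several, so the spread between libraries of a genotype may be partly technical. No other agent, injury or Cre allele is named for these libraries.

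BMP ligands bring together type I and type II receptors at the cell surface, and the active type I receptor phosphorylates SMAD1, SMAD5 and SMAD9, which enter the nucleus with SMAD4. The *Id* genes are the best known direct targets of these SMADs. ID proteins hold a helix-loop-helix domain but no DNA-binding region, so they pair with E proteins and keep them, and partners such as MYOD, off DNA. In muscle, BMP signalling and ID proteins are known for holding back differentiation.

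The 4 *Id* genes are related in sequence, so their most similar coding stretch is printed first to show how far their reads can be told apart. Each line gives 90 coding bases from the region that encodes the helix-loop-helix domain, 5′ to 3′, from the mouse build GRCm38 and GENCODE gene models. Capitals mark the 48 bases that are the same in all 4 genes.
*Id1*: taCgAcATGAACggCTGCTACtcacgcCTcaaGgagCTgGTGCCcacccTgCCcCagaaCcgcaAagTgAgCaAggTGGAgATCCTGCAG
*Id2*: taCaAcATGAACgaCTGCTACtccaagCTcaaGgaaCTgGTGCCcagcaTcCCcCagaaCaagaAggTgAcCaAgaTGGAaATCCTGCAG
*Id3*: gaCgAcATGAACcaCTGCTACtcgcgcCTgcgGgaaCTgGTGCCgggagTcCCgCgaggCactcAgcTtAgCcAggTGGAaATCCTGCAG
*Id4*: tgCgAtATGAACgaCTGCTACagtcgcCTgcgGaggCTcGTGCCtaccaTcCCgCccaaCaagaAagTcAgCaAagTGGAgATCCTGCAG
They lie, within 1 exon each, at chr2:152736518-152736607 on the plus strand for *Id1*, chr12:25095813-25095902 on the minus strand for *Id2*, chr4:136144002-136144091 on the plus strand for *Id3* and chr13:48261693-48261782 on the plus strand for *Id4*. Within the window, identity between a pair ran from 67.8% for *Id3* and *Id4* to 81.1% for *Id1* and *Id2*. The longest run of coding bases shared by any pair was 17, between *Id1* and *Id4*. Of the 31-base sequences in the transcripts of each of the 10 genes, 0 occurred in another of the 10. The largest share found in any other gene was 1.6%, for *Id2*, whose shared sequences occur in *Gm6175*. Reads of the *Id* genes are therefore little exposed to one another.

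Stretches before a start site of *Id2* and of *Id4* are printed because both hold the letters GGCGCC. This palindrome is known as one of the GC-rich sequences that SMAD1 and SMAD5 bind. They are RefSeq promoter sequence (build GRCm38.p6), limited to the bases outside the annotated exons of the gene, with GGCGCC in capitals.
*Id2*: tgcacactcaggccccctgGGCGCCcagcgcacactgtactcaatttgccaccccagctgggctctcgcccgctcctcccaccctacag
*Id4*: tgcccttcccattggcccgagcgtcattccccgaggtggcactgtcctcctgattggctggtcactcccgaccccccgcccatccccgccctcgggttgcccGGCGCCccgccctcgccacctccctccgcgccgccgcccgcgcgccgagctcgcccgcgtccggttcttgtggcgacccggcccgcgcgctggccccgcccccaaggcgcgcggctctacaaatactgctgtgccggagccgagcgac
The first is the minus strand of chr12:25096254-25096342 and the second the plus strand of chr13:48260866-48261115. GGCGCC begins 231 bases before the start site used for *Id2* and 148 bases before that used for *Id4*. The *Id2* stretch lies within the annotated span of *Id2* (chr12:25093799-25097140), outside its exons, so it is not upstream of the whole gene. Windows of 300 bases around the start were at hand for 9 of the 10 genes, and GGCGCC stood in those of 5, namely *Id2*, *Id4*, *Bmpr1a*, *Bmpr2* and *Smad5*. Over all 32851 promoter windows at hand, 11.9% hold it. The 9 genes had 11 windows, so the count of genes and the share of windows are unlike measures, here and for the motif below. The shorter SMAD motif GTCT, searched on both strands and sharing no overlap with GGCGCC, stood in windows of 6 of the 9 and in 88.0% of all windows. These matches describe the letters only, and no binding was measured.

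Estimated reads per library ran from 17822367 in Pax7 WT replicate 2 to 27908054 in Pax7 WT replicate 1. Markers of satellite cells were high in all 6 libraries, with *Chodl*, a surface lectin of these cells, at 1519 to 1979 TPM, a length-corrected share of all transcripts, and *Pax7* at 511 to 590 TPM. The KR allele changes a codon, so the *Pax7* level (541.4 ± 42.5 TPM in Pax7 WT and 543.1 ± 36.4 in Pax7 KR, mean ± SD, n = 3) does not check the labels. In bulk samples such as these, fewer cells of a type and less RNA per cell cannot be told apart.

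Levels are compared between genes in TPM, which accounts for transcript length. *Id3* was the most abundant of the 10, at 985 ± 197 TPM over the 6 libraries (mean ± SD), and 0.805% of the genes tested had a higher mean. *Bmp4* followed at 342 ± 31 TPM, *Id1* at 241 ± 54 TPM and *Bmp6* at 231 ± 19 TPM. *Id2* stood at 80.9 ± 16.97 TPM. The receptors and SMADs were lower, with *Bmpr1a* at 53.4 ± 5.5 TPM, *Smad5* at 47.3 ± 1.8 TPM, *Bmpr2* at 32.4 ± 2.1 TPM and *Smad1* at 18.7 ± 1.6 TPM. *Id4* was the lowest at 3.91 ± 0.97 TPM, from 117 to 323 reads per library, the fewest of the 10. In this order, the ranges of *Bmp4* and *Id1*, of *Id1* and *Bmp6*, and of *Bmpr1a* and *Smad5* overlapped, and each of the other neighbours was separated in all 6 libraries. *Id3* made up 73.6% to 78.1% of the summed TPM of the 4 *Id* genes in every library, while that sum ran from 993 to 1707 TPM.

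**Figure D1:**
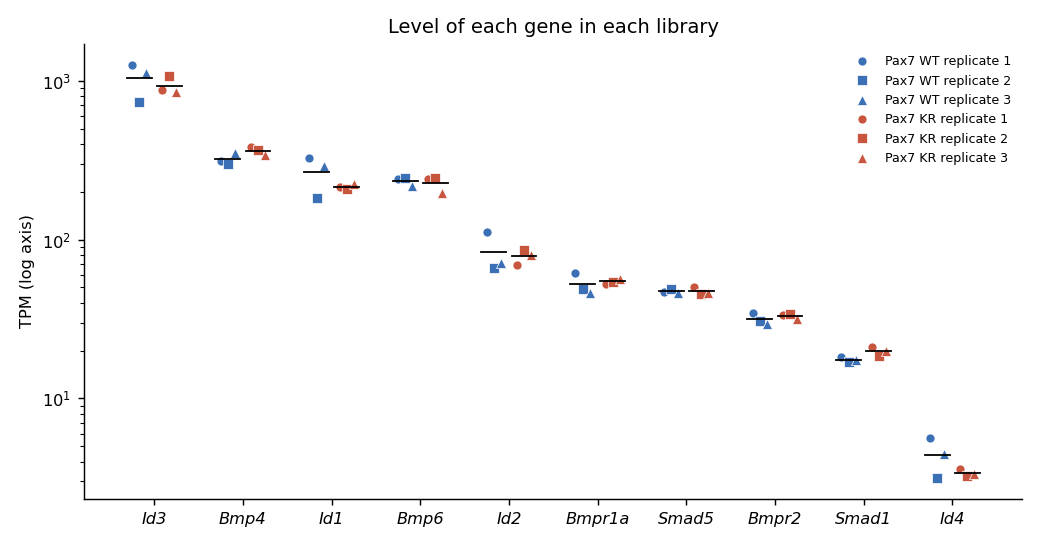
TPM on a log axis for each of the 10 genes, ordered by mean, with 1 point per library (blue Pax7 WT, red Pax7 KR, shape by replicate) and a line at the mean of each genotype. *Id3* sits near 985 TPM and *Id4* near 3.91, and the points of the 4 *Id* genes are spread more widely in Pax7 WT than in Pax7 KR.

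Whether the genotypes differed was tested on reads scaled to library size and composition (CPM, with TMM factors), with edgeR's quasi-likelihood test over all 17152 genes and a cut-off of 0.1 on the Benjamini-Hochberg adjusted p. Of the 10 genes, 0 passed, against 0 of all genes tested (0.0%). At an unadjusted p under 0.05 in edgeR, 803 genes passed (4.68%), of which 416 were lower in Pax7 KR (2.43%). Of the 10, 1 did, *Id4*, also lower. DESeq2 called 30 of 17138 genes (0.175%), DESeq2 with a transcript length offset 45 of 13486 (0.334%) and limma-voom 0, with 0 of the 10 genes called by any of these. In CPM the libraries of the genotypes overlapped for each of the 10, while they did not overlap for 10.3% of all genes tested. The median log2 fold change (Pax7 KR minus Pax7 WT) was -0.063 over the 10 genes and -0.004 over all genes tested.

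*Id1* encodes the first described of the ID proteins. Its CPM were 150, 89.7 and 135 in Pax7 WT replicates 1 to 3 and 97.2, 97.97 and 106 in Pax7 KR replicates 1 to 3. The 3 Pax7 KR libraries lay close together, and the Pax7 WT libraries stood on both sides of them. The mean was 125 ± 32 CPM in Pax7 WT and 100.4 ± 4.9 in Pax7 KR (n = 3 each), a log2 fold change of -0.32 ± 0.20 (SE, 95% interval -0.84 to 0.20, edgeR adjusted p = 0.992). With all 6 libraries, the unadjusted p of *Id1* was 0.174 in edgeR, 0.0254 in DESeq2 and 0.033 in DESeq2 with the length offset. The adjusted p in those DESeq2 fits was 0.999 and 0.843. *Id1* was the one member whose call turned on a single library. Without Pax7 WT replicate 2 its log2 fold change was -0.51 ± 0.07 (edgeR adjusted p = 0.0624). Without Pax7 WT replicate 1 it was -0.17 ± 0.18 (edgeR adjusted p = 0.982). In the fit without Pax7 WT replicate 2, 3 of 16942 genes were called lower in Pax7 KR (0.0177%), namely *Id1*, *Egr3* and *Lix1*, and 1 was called higher, the pseudogene *Sms-ps*. These 4 names were taken after their values were seen.

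*Id3*, the main *Id* gene of these cells, had 687, 393 and 581 CPM in Pax7 WT and 434, 537 and 452 CPM in Pax7 KR (replicates 1 to 3 of each). The Pax7 WT libraries held both the highest and the lowest value. The mean was 553 ± 149 CPM in Pax7 WT and 474 ± 55 in Pax7 KR, a log2 fold change of -0.22 ± 0.23 (SE, 95% interval -0.83 to 0.39, edgeR adjusted p = 0.998). Leaving out Pax7 WT replicate 2 gave -0.42 (edgeR adjusted p = 0.665), and leaving out replicate 1 gave -0.04.

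*Id2* had 72.0, 42.2 and 46.6 CPM in Pax7 WT and 40.5, 51.4 and 50.2 CPM in Pax7 KR. Pax7 WT replicate 1 stood apart from the other 5 libraries, which lay between 40.5 and 51.4 CPM. The log2 fold change was -0.18 ± 0.24 (SE, 95% interval -0.80 to 0.43, edgeR adjusted p = 0.998), and without Pax7 WT replicate 1 it turned to 0.09. Its direction therefore rested on that library.

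*Id4* encodes the member of the family best known from the nervous system, and its CPM were 11.9, 6.61 and 9.55 in Pax7 WT and 7.04, 6.41 and 6.95 in Pax7 KR. The 3 Pax7 KR libraries were alike, and Pax7 WT replicate 2 lay among them. The log2 fold change of -0.47 ± 0.20 (SE, 95% interval -0.90 to -0.03) was the largest of the 10 genes, with an unadjusted p of 0.037 from edgeR and an adjusted p of 0.992. Leaving out Pax7 WT replicate 1 gave -0.25 (edgeR adjusted p = 0.977), and leaving out replicate 2 of that genotype gave -0.66 (edgeR adjusted p = 0.606). The unadjusted p was above 0.05 when any 1 of the 5 libraries other than Pax7 WT replicate 2 was left out (0.0615 to 0.244), with a transcript length offset (0.0713 in edgeR and 0.0738 in DESeq2) and with protein-coding transcripts only (0.0542). The annotated *A330033J07Rik* and *Gm49291* overlap *Id4* on the opposite strand. The libraries were directional, but the strand setting of the counting is not given in the sources used here.

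**Figure D2:**
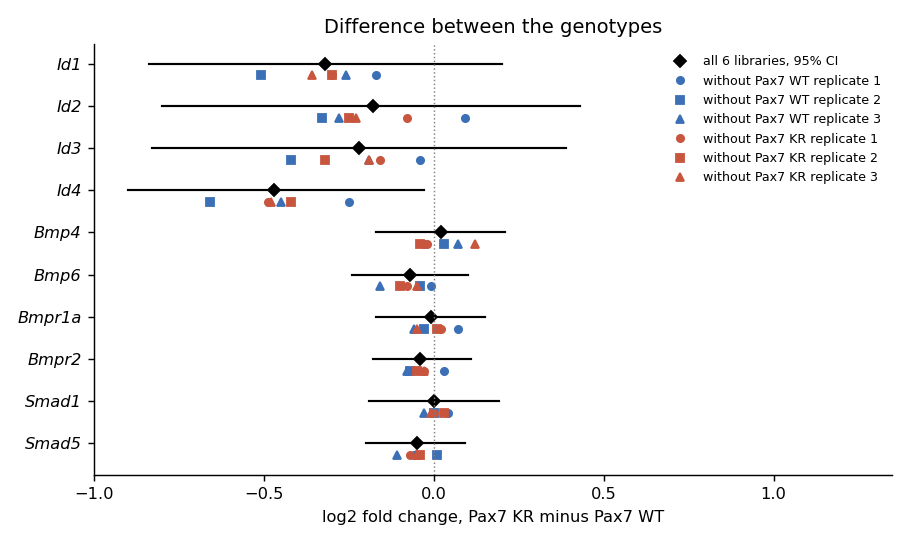
Log2 fold change (Pax7 KR minus Pax7 WT) of each gene from edgeR, as a black diamond with its 95% interval, and below it the values with 1 library left out (colour for the genotype and shape for the replicate of that library). The intervals of the *Id* genes are wider than those of the other 6 genes, and leaving out Pax7 WT replicate 1 or 2 moves the *Id* genes in opposite directions.

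The *Id* genes shared the highest and the lowest Pax7 WT library, while their highest Pax7 KR library differed. In all 4, Pax7 WT replicate 1 was the highest of the 6 libraries and Pax7 WT replicate 2 the lowest of its genotype. The coefficient of variation in CPM among Pax7 WT libraries was 25.3% for *Id1*, 30.0% for *Id2*, 26.9% for *Id3* and 28.2% for *Id4*, and among Pax7 KR libraries it was 4.84%, 12.5%, 11.6% and 5.03%. For the other 6 genes it ran from 4.99% to 11.2% among Pax7 WT libraries and from 1.88% to 11.6% among Pax7 KR libraries. The ranges of the *Id* genes and the other 6 thus overlapped in Pax7 KR. The highest library held 1.68 to 1.85 times the CPM of the lowest for the *Id* genes and 1.10 to 1.25 times for the other 6.

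Immediate early genes are switched on within minutes of a stimulus, including the isolation of cells. Among the Pax7 WT libraries they were lowest in replicate 2, as were the *Id* genes. The 15 listed immediate early genes summed to 27700, 14700 and 26060 TPM in Pax7 WT replicates 1 to 3. In Pax7 KR replicates 1 to 3 they summed to 22120, 25580 and 22300 TPM. Unlike these sums, *Id2* in Pax7 WT replicate 3 (46.6 CPM) lay nearer replicate 2 (42.2 CPM) than replicate 1 (72.0 CPM). Pax7 WT replicate 2 was the lowest of the 6 libraries for 14 of the 15 and Pax7 WT replicate 1 the highest for 12. Among the Pax7 KR libraries, replicate 2 was the highest for 11 of the 15. In that library *Id2* and *Id3* were also the highest of the genotype, while *Id4* was at its lowest. *Fos*, the founding member of the group, had 6729, 3483 and 6606 CPM in Pax7 WT and 4969, 5577 and 5338 CPM in Pax7 KR. *Egr3*, the immediate early gene called beside *Id1* without Pax7 WT replicate 2, had 25.9, 8.98 and 18.6 CPM in Pax7 WT and 9.58, 10.1 and 10.9 in Pax7 KR. None of the 15 passed the cut-off in edgeR, and *Myc*, with a log2 fold change of -0.20, was the 1 gene at an unadjusted p under 0.05. Pax7 WT replicates 1 and 2 are also the libraries with the most and the fewest reads. The part of the isolation response or of depth in the *Id* values was not tested.

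**Figure D3:**
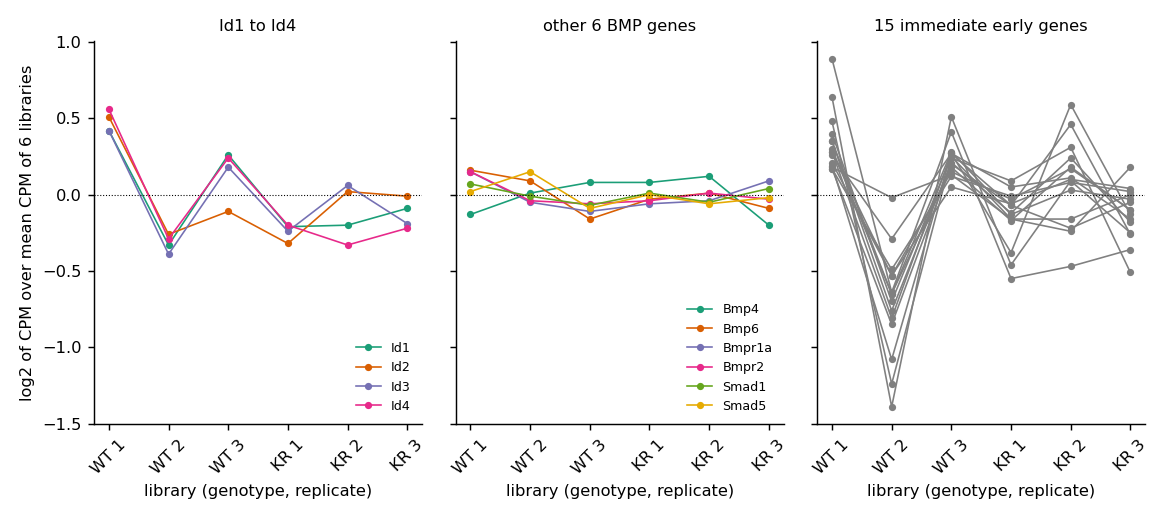
Log2 of the CPM in a library over the mean CPM of the 6 libraries, with a line for each gene joining its values, for the 4 *Id* genes, for the other 6 genes and for 15 immediate early genes. The *Id* genes peak in Pax7 WT replicate 1 (0.42 to 0.56) and dip in Pax7 WT replicate 2 (-0.39 to -0.26), where the immediate early genes lie between -1.39 and -0.02.

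The genes whose log2(CPM + 1) followed that of *Id3* most closely over the 6 libraries, among 17151 ranked by Pearson's r, were *Zeb2* (r = 0.993), *Sap25* (r = 0.992) and *D3Ertd751e* (r = 0.992). *Id1* (r = 0.897), *Id4* (r = 0.838) and *Id2* (r = 0.832) ranked 184, 443 and 470 in that order. The ligands, with r = -0.101 for *Bmp4* and 0.150 for *Bmp6*, did not follow *Id3*, and among receptors and SMADs r ran from -0.534 for *Smad5* to 0.701 for *Bmpr2*. With 6 points that share depth and handling, these values describe the libraries and no more.

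The ligand *Bmp4*, a potent activator of the pathway, had 212, 233 and 246 CPM in Pax7 WT and 246, 253 and 203 CPM in Pax7 KR. The ranges of the genotypes nearly coincided. The log2 fold change was 0.02 ± 0.09 (SE, 95% interval -0.17 to 0.21, edgeR adjusted p = 0.998). With a transcript length offset it was 0.11 in edgeR, and the average effective length of its transcripts ran from 977 to 1236 bases over the libraries.

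*Bmp6*, which acts on many of the same receptors and is best known for iron control in the liver, had 441, 422 and 354 CPM in Pax7 WT and 387, 399 and 372 CPM in Pax7 KR. The Pax7 KR values fell inside the Pax7 WT range. Its log2 fold change was -0.07 ± 0.08 (SE, 95% interval -0.24 to 0.10, edgeR adjusted p = 0.998). Per length, *Bmp4* exceeded *Bmp6* in all 6 libraries, by 1.23 to 1.72 times. *Gm15217* and *Gm15222* overlap *Bmp4* on the opposite strand, and *Txndc5* and *4930579J19Rik* overlap *Bmp6* in the same way.

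The type I receptor *Bmpr1a* had 196, 171 and 164 CPM in Pax7 WT and 169, 172 and 187 CPM in Pax7 KR. The Pax7 KR values lay inside the Pax7 WT range. The log2 fold change was -0.01 ± 0.07 (SE, 95% interval -0.17 to 0.15, edgeR adjusted p = 0.998). *Gm17110* overlaps it on the opposite strand.

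*Bmpr2*, the type II receptor that activates the type I receptor, had 263, 230 and 227 CPM in Pax7 WT and 231, 239 and 231 CPM in Pax7 KR. All 3 Pax7 KR libraries lay inside the Pax7 WT range. The log2 fold change was -0.04 ± 0.07 (SE, 95% interval -0.18 to 0.11, edgeR adjusted p = 0.998). Per length, *Bmpr1a* held 1.56 to 1.80 times the level of *Bmpr2*, in all 6 libraries. *Gm38125* overlaps *Bmpr2* on the same strand.

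*Smad5*, a transducer phosphorylated by the BMP type I receptors, had 179, 196 and 167 CPM in Pax7 WT and 177, 171 and 175 CPM in Pax7 KR. Again the Pax7 KR libraries stood within the Pax7 WT range. The log2 fold change was -0.05 ± 0.07 (SE, 95% interval -0.20 to 0.09, edgeR adjusted p = 0.998). Its level per length was 2.32 to 2.91 times that of *Smad1*. *Gm27301*, *Gm27834* and *Gm27271* overlap *Smad5* on the same strand, and 1.08% of its 31-base sequences occur in *Gm27301* or *Gm44252*.

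*Smad1*, the close relative of *Smad5*, had 30.4, 28.7 and 27.5 CPM in Pax7 WT and 29.2, 27.98 and 29.7 CPM in Pax7 KR. These 6 values were the tightest of the 10 genes, with the highest 1.10 times the lowest. The 95% interval of its log2 fold change ran from -0.19 to 0.19 (edgeR adjusted p = 0.999).

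*Smad1* differed between its scales. In TPM it stood at 18.3, 16.9 and 17.5 in Pax7 WT and 21.2, 18.4 and 19.99 in Pax7 KR, so the genotypes did not overlap, as was the case for 12.5% of all genes tested. With transcript length as an offset, its log2 fold change was 0.11 ± 0.10 in edgeR (adjusted p = 0.985). Reads on the leading transcript *Smad1*-202 made up 91.1%, 92.8% and 89.0% of the gene's reads in Pax7 WT and 86.7%, 85.8% and 83.7% in Pax7 KR. The remaining reads lay mostly on *Smad1*-203 and on the shorter, non-coding models *Smad1*-201 and *Smad1*-204. Of 9 members with more than 1 transcript in use, *Smad1* was the 1 whose leading share did not overlap between genotypes, against 9.20% of 12404 genes with more than 1 transcript. A count of 1 in 10 or 1 in 9 is near these backgrounds.

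Transcript use also differed among the other members. *Id1* has a spliced model, *Id1*-201, and an unspliced one, *Id1*-202, which spans the whole gene. The spliced model took 76.4%, 61.7% and 74.1% of the reads of *Id1* in Pax7 WT and 70.3%, 56.7% and 62.3% in Pax7 KR. The genotypes overlapped, and the Pax7 WT library with the lowest share was replicate 2, which also had the lowest *Id1* level. Among Pax7 KR libraries, replicate 1 had the highest share but the lowest *Id1* CPM, and replicate 2 had the lowest share. For *Id3*, a retained intron model took 20.5% to 25.9% of the reads, and *Id3*-201, which encodes the protein, 74.0% to 79.4%. *Bmp4* was split between *Bmp4*-201 with 54.7% to 62.5% and *Bmp4*-202 with 33.5% to 41.1%. In *Bmp6*, *Bmpr1a*, *Bmpr2* and *Smad5* a single model held over 96% of the reads in each library, and *Id4* has 1 model. Reads that fit several models were shared out by estimation, which limits the precision of these shares.

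**Figure D4:**
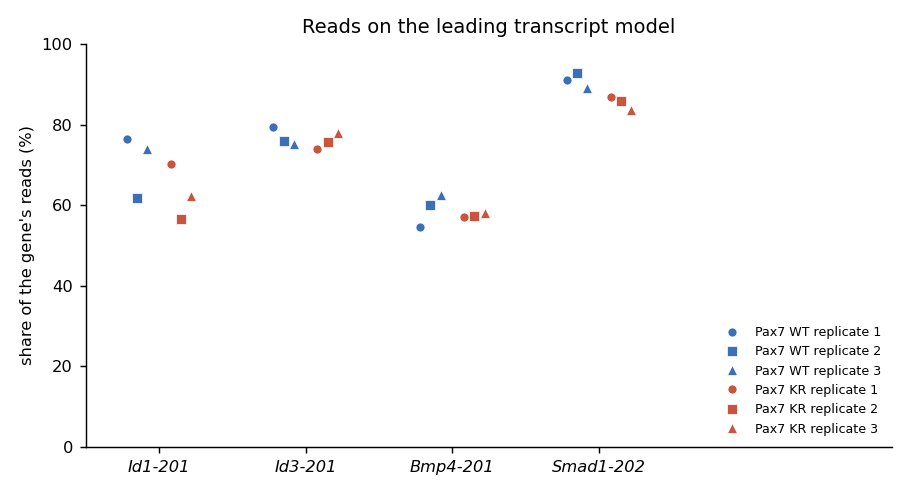
Share of a gene's estimated reads on its leading transcript model, in percent, with 1 point per library (blue Pax7 WT, red Pax7 KR, shape by replicate). *Smad1*-202 lies between 89.0% and 92.8% in Pax7 WT and between 83.7% and 86.7% in Pax7 KR, while the libraries of the genotypes overlap for *Id1*-201, *Id3*-201 and *Bmp4*-201.

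The rest of the pathway was described with 80 further genes, of which 61 had enough reads to be tested. By edgeR, 0 of the 61 passed the cut-off and 0 stood at an unadjusted p under 0.05. Their log2 fold change was negative for 37 and positive for 24, with a median of -0.021. Among the 13 other ligands, 6 were tested, and *Gdf7* at 16.3 TPM and *Bmp2* at 4.05 TPM were the most abundant, far under *Bmp4* and *Bmp6*. *Bmp2* had a log2 fold change of -0.20 (unadjusted p = 0.355, edgeR) and *Bmp7*, at 0.151 TPM, of -0.62 (unadjusted p = 0.412, edgeR).

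All 5 other receptors were tested. *Acvr1*, a type I receptor for BMPs, stood at 42.0 TPM and *Acvr2a*, a type II receptor, at 28.04 TPM, between *Bmpr1a* and *Smad1* in level. *Acvr2a* had a log2 fold change of -0.13 (unadjusted p = 0.145, edgeR) and *Acvrl1*, known from endothelial cells, of -0.05. The 7 co-receptors included *Tgfbr3* at 331 TPM, *Rgmb* at 279 TPM and *Rgma* at 190 TPM, each above *Bmpr1a* and *Bmpr2*. *Eng*, or endoglin, had a log2 fold change of 0.22 (unadjusted p = 0.0991, edgeR) and *Rgma* of -0.13 (unadjusted p = 0.123, edgeR).

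Of 18 antagonists, which bind ligands outside the cell or otherwise limit the signal, 12 were tested. *Chrdl2*, a chordin-like antagonist, was the most abundant of the 80 genes at 501 TPM, above *Bmp4*, and *Fstl1* followed among antagonists at 135 TPM. *Chrdl2* had a log2 fold change of -0.03, *Fstl1* of -0.07 and *Chrd* of 0.16 (edgeR unadjusted p = 0.772, 0.358 and 0.212). All 16 SMADs and regulators were tested, with *Ctdsp2*, a phosphatase for SMADs, at 268 TPM and *Nedd4l*, a ubiquitin ligase, at 185 TPM. *Fkbp1a*, which guards the type I receptor against activity without ligand, had a log2 fold change of -0.08, and *Smad6*, an inhibitory SMAD that BMPs induce, of -0.18 (edgeR unadjusted p = 0.177 and 0.265).

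Among 14 other target genes, 8 were tested. *Atoh8*, a transcription factor induced by BMPs, had 106, 93.3 and 77.3 CPM in Pax7 WT and 56.4, 67.2 and 83.0 CPM in Pax7 KR. The groups overlapped through 1 Pax7 KR library, and the log2 fold change was -0.42 ± 0.18 (SE, unadjusted p = 0.0561, edgeR adjusted p = 0.992). Its highest library was Pax7 WT replicate 1, as for the *Id* genes, but Pax7 WT replicate 2 was the second highest. *Hey1* and *Hes1*, which Notch also controls, had log2 fold changes of 0.20 ± 0.10 (unadjusted p = 0.0745, edgeR) and 0.34 ± 0.36, and levels of 96.3 and 338 TPM. The targets as a list had a median log2 fold change of 0.243, on the other side of 0 from the median of -0.272 over the 4 *Id* genes. The tested targets other than *Atoh8*, *Hey1* and *Hes1* stood at only 0.0653 to 4.16 TPM. The highest fold change, 0.72 ± 1.49 (SE), came from the gene at 0.0653 TPM, with 0 to 6 reads per library. This median therefore rests in part on genes with few reads.

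The partners of ID proteins were all 7 tested. The E protein *Tcf4* stood at 260 TPM, *Tcf12* at 68.3 TPM and *Myod1*, the myogenic factor that pairs with E proteins, at 143 TPM, so *Id3* exceeded each in TPM. *Tcf12* had a log2 fold change of -0.14 ± 0.07 (unadjusted p = 0.0683, edgeR), *Tcf4* of -0.02, *Myod1* of -0.13 and *Myf6* of -0.29.

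**Figure D5:**
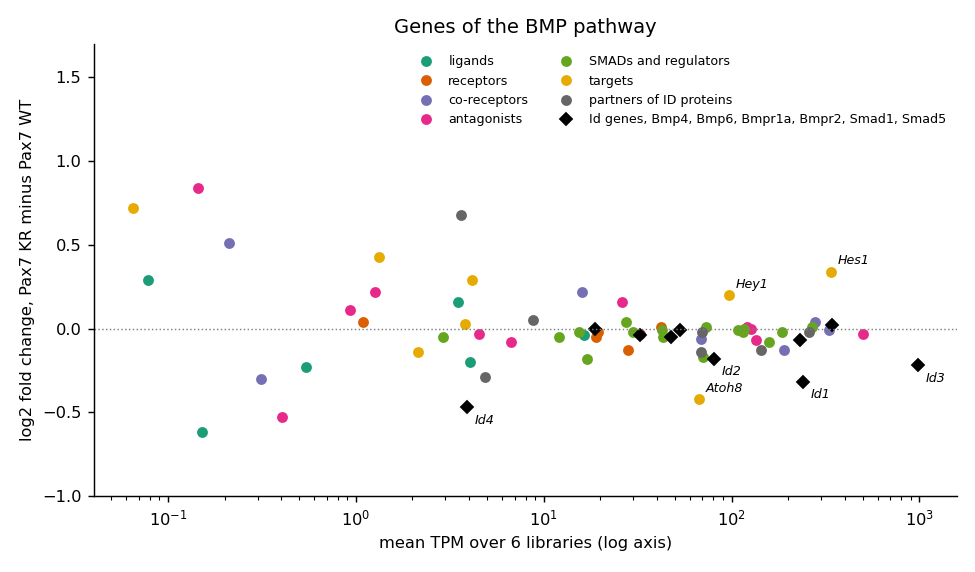
Log2 fold change (Pax7 KR minus Pax7 WT) against mean TPM over 6 libraries on a log axis, with 1 point for each of the 61 tested pathway genes, coloured by role, and black diamonds for the 10 genes described. Above 10 TPM most points lie close to 0, and *Id1*, *Atoh8* and *Hes1* stand farther from it, none of them past the cut-off.

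Endothelial cells also express *Id1* and *Id3*, so markers of other cells are given beside them. The 12 endothelial markers summed to 135 to 179 TPM in Pax7 WT and 152 to 228 TPM in Pax7 KR, led by *Tek* at 78.8 TPM, which satellite cells express too, and *Pecam1* at 16.8 TPM. By library, the endothelial sums were 143, 135 and 179 TPM in Pax7 WT replicates 1 to 3. They were 188, 228 and 152 TPM in Pax7 KR replicates 1 to 3. The median log2 fold change of the 12 markers was 0.386, and 0 of 12 passed the cut-off. The 10 immune markers summed to 20.5 to 27.5 TPM over the 6 libraries, led by *Lyz2* at 8.13 TPM and *Cd79a* at 6.25 TPM, with *Cd3e* at 0 in all libraries. The 5 erythroid genes summed to 719 to 1386 TPM in Pax7 WT and 1264 to 2054 TPM in Pax7 KR, led by *Hba-a2* at 533 TPM and *Hbb-bs* at 430 TPM. In edgeR all 5 were higher in Pax7 KR, with a median log2 fold change of 0.664. The 10 fibro-adipogenic markers summed to 1329 to 1434 TPM in Pax7 WT and 1437 to 1581 TPM in Pax7 KR, which did not overlap. *Gsn* at 758 TPM and *Dpt* at 623 TPM held most of each sum. Of the other markers in this list, *Dcn* had the highest mean at 33.55 TPM and *Pdgfra* the lowest at 0.722 TPM. In edgeR, 5 of the 10 were lower and 5 higher in Pax7 KR, with a median log2 fold change of -0.02. Of all single genes tested, 12.5% did not overlap in TPM. The 10 smooth muscle and pericyte markers summed to 1051 to 1233 TPM, led by *Notch3* at 501 TPM and *Des* at 299 TPM, both also genes of satellite cells. The 9 Schwann and glial markers summed to 215 to 260 TPM, led by *Ncam1* at 152 TPM and *Mbp* at 37.5 TPM. The 10 myofibre markers summed to 153 to 199 TPM, led by *Actn3* at 108 TPM and *Acta1* at 21.7 TPM, and the 6 tenocyte markers to 33.1 to 65.3 TPM, led by *Scx* at 12.7 TPM and *Mkx* at 11.2 TPM. None of these lists had a gene past the cut-off in edgeR, and 1 immune gene (*Cd79a*, log2 fold change -0.58) and 1 Schwann and glial gene (*Ngfr*, log2 fold change -0.48) stood at an unadjusted p under 0.05. The sums of the fibro-adipogenic, Schwann and glial and myofibre lists rest mainly on their leading genes, so they do not measure amounts of those cells. The part of other cells in the levels of the 10 genes was not tested.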

How the data were processed

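RNA-sequencing of freshly isolated satellite cells was analysed in 3 Pax7 WT and 3 Pax7 KR libraries, assigned from the labels. The authors assigned read pairs to transcripts with salmon (version 1.3.0 in the submitters' processing notes) against GENCODE transcripts of GRCm38, with the genome as decoy. The authors deposited estimated counts that are not normalized, TPM values and effective transcript lengths. The authors' own comparison of the genotypes, with log2 fold changes and p-values made with DESeq2 (version 1.28.1), was not used.

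Estimated counts and TPM were summed per gene through the gene models of an older GENCODE release for that build, which matched 139791 of 140992 transcripts and left out 0.592% to 0.634% of the reads. Counts were rounded. The test was edgeR's robust quasi-likelihood test (version 4.0.16, TMM factors, R version 4.3.3) on genotype alone, for genes reaching 5 reads in at least 2 libraries. Standard errors came from the fold change and the F statistic, and intervals are at 95%. DESeq2 (version 1.42.0) and limma (version 3.58.1) served as alternatives. The edgeR, DESeq2 and limma-voom fits, the length offset in edgeR and the replicate block were tried on simulated counts. The other alternatives were not. Shared sequence was counted over 31 bases. The coding window was the 90 bases of *Id3* that matched the other *Id* genes best.

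The members and lists were chosen with earlier results of these data known. Beside the members, *Pax7* and the genes most like *Id3*, the genes named were, per pathway role, the 2 with the smallest p and the 2 with the highest TPM, and per marker list the 2 with the highest TPM. *Fos*, *Egr3*, *Myc*, *Ngfr*, *Cd3e*, *Dcn* and *Pdgfra* were named after their values were seen.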

Additional observations from a re-analysis of the deposited data

How the results depend on the processing

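The alternatives were other tools, scalings and filters, transcript length as an offset, protein-coding transcripts only, a cut-off of 0.05, a replicate block and leaving out each library. Of the 10 genes, 0 were called under any alternative except without Pax7 WT replicate 2, so the count ran from 0 to 1 when a library was left out. The pathway count moved to 1 (*Atoh8*) with no filter on low reads. Over all genes, 30 were called by DESeq2, 45 by DESeq2 with the length offset, 157 with no filter, 13 with the replicate block and 1 to 32 with a library left out. Libraries with the same number did not deviate together (r = 0.016, 0.057 and -0.022), so the numbers were not taken as pairs. Fold changes on the log2 scale that changed sign with a library left out ran from -0.33 to 0.09 for *Id2*, -0.04 to 0.12 for *Bmp4*, -0.06 to 0.07 for *Bmpr1a*, -0.08 to 0.03 for *Bmpr2*, -0.03 to 0.04 for *Smad1* and -0.11 to 0.01 for *Smad5*. With the length offset, in DESeq2 and edgeR, *Bmpr1a* was at 0.00053 and 6.5e-05 and *Bmpr2* at 0.0034 and 0.0031. *Smad1* was at -0.0034 with limma-voom and -0.05 with protein-coding transcripts only. The cause was not tested. The other fold changes kept their sign, but leaving out Pax7 WT replicate 1 took *Id3* from -0.22 to -0.04 and *Id4* from -0.47 to -0.25. With 3 libraries a genotype, the intervals of *Id1*, *Id2* and *Id3* hold fold changes of either sign, and that of *Id4* does not, but its unadjusted p was above 0.05 in 8 of 17 alternatives.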
